A study of Mus musculus with 9 samples.

Results

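The 10 transcription factor genes that set up and maintain the B lineage, *Pax5*, *Ebf1*, *Tcf3*, *Ikzf1*, *Ikzf3*, *Foxo1*, *Spi1*, *Irf4*, *Irf8* and *Bach2*, were examined for binding of BAP1 in the B cell precursor line Ba/F3. They were listed by name, and the rule for choosing them used no measured value. The annotation has 22367 protein-coding genes and includes all 10, although *Spi1* stands there under its older symbol *Sfpi1*. Together they have 77 annotated transcripts that begin at 56 distinct transcription start sites (TSSs). For each gene, the peaks were taken that had their middle within 1 kb of any of its TSSs (gene-proximal), as well as all peaks inside the gene or within 50 kb of either end.

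B cells arise from lymphoid progenitors through a small network of transcription factors. E2A (encoded by *Tcf3*), PU.1 (*Spi1*), Ikaros (*Ikzf1*) and FOXO1 act early, EBF1 and PAX5 then commit the cell to the B lineage, and Aiolos (*Ikzf3*), IRF4, IRF8 and BACH2 shape the later pre-B and mature stages. BAP1 is a nuclear deubiquitinase that removes ubiquitin from a lysine of histone H2A (H2AK119ub), a repressive mark that Polycomb complexes deposit. BAP1 is found mostly at promoters, and many of these are rich in CpG dinucleotides.

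Ba/F3 is a mouse pro-B cell line that depends on interleukin 3 for growth. The binding sites came from chromatin of wild type Ba/F3 cells precipitated with an anti-BAP1 antibody, and from Ba/F3 cells that stably express triple-FLAG-tagged murine BAP1 precipitated with anti-FLAG. The tagged line was kept under puromycin selection, and the labels name no deletion of the cells' own *Bap1* in either line. Both stand for B cell precursors only as far as a single IL-3-dependent cell line does. Each of the 2 immunoprecipitations was sequenced 1 time, so there are no replicates and no spread between samples. The H2AK119ub samples of wild type cells and of the *Bap1* knockout clones KO3 and KO4, and the 4 input DNA samples, were not analysed here.

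The deposited data are 1 list of 13164 peaks from both immunoprecipitations, each 200 bp wide, with a position but no height or score. The list gives no depth, so the absence of a peak says only that none was listed at the threshold the authors used. It also does not say whether a gene was expressed. Of 8 pre-B marker genes, 1 (*Vpreb1*) had a gene-proximal peak, as did 1 of 6 T cell, 0 of 6 myeloid and 0 of 4 erythroid markers and 2 of 5 markers of other IL-3-dependent progenitors. Over all protein-coding genes the share was 39.6%, and the *Vpreb1* peak also lay 3 bp from the TSS of *Top3b*. These counts do not check the identity of the cells.

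BAP1 peaks were listed within 1 kb of a TSS of 2 of the 10 B lineage transcription factor genes. *Tcf3* had a peak centred on its first TSS, and *Spi1* had one in its first intron, 625 bp downstream of its first TSS. The share of 20.0% (95% Wilson interval 5.67 to 51.0%, counting error only) lay below the share over all protein-coding genes, of which 39.6% had a gene-proximal peak (8850 of 22367), and that background value fell inside the interval of the members. *Pax5*, *Ebf1*, *Ikzf1*, *Ikzf3*, *Foxo1*, *Irf4*, *Irf8* and *Bach2* had none. The median distance from a TSS to the nearest peak was 42.7 kb over the 10 genes and 16.6 kb over all protein-coding genes.

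The 4 sequences given next are from the mouse genome build mm9. The first 2 are from members with a peak and the others from 2 of the CpG-rich members without one. The line for *Tcf3* holds the 100 bases just before its first TSS, which are also the upstream part of its peak, read on the minus strand (chr10:79896393-79896492). That for *Spi1* holds the whole intronic peak on the plus strand (chr2:90923091-90923290). *Foxo1* (chr3:52072159-52072258) and *Irf8* (chr8:123260158-123260257) are shown by the 100 bases before their first TSSs on the plus strand. Capitals mark letters searched for on both strands: GGGCGG or its reverse complement CCGCCC (bound by SP1 and KLF factors), CCAAT or ATTGG (NF-Y) and CCCNNGGG (EBF1), and in *Spi1* alone TGTGGT (RUNX factors) and ACAGGAA or TTCCTGT (ETS factors).
Tcf3 upstream of the TSS: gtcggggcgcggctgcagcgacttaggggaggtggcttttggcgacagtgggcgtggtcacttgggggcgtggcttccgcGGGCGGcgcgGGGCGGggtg
Spi1 intronic peak: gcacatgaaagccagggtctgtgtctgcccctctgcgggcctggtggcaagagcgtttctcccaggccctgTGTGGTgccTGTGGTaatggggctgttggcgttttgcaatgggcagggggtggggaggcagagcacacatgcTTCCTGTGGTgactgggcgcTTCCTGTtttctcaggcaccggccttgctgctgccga
Foxo1 upstream of the TSS: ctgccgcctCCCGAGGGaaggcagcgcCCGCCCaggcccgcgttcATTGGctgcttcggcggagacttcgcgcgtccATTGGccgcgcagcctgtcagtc
Irf8 upstream of the TSS: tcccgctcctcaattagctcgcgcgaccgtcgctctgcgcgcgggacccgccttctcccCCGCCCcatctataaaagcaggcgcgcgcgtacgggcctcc

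Within these 100 bases, *Tcf3* held 13 CpG dinucleotides, *Foxo1* also 13 and *Irf8* 16. *Foxo1*, whose nearest peak was 68.8 kb away, thus had as many as *Tcf3*. The other CpG-rich members without a peak, not shown, held 3 (*Ikzf1*), 10 (*Ikzf3*) and 14 (*Bach2*) in the 100 bases before their first TSSs. GGGCGG occurred upstream of 4 of the 10 members, namely *Tcf3*, *Foxo1*, *Irf4* and *Irf8*, and 1 of these 4 had a peak at that start. Among all protein-coding genes, 31.4% held it in the 100 bases upstream, and it was found in 48.9% of those with a gene-proximal peak and 20.0% of those without.

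*Tcf3* encodes E12 and E47, the E2A basic helix-loop-helix proteins that open the B cell programme with EBF1. The gene covers 24.1 kb on chromosome 10 (79872259 to 79896392, minus strand, ENSMUSG00000020167). Its peak at 79896293 to 79896492 had its middle exactly at the first TSS, 0 bp away, and covered the 5 TSSs between 79896366 and 79896392 from which 8 of its 14 transcripts begin. The peak was rich in GC (77.5%) and had a CpG ratio, observed over expected, of 1.05. The 3 other groups of *Tcf3* TSSs, separated by more than 1 kb, lie 2.57, 11.8 and 8.66 kb from their nearest peaks, and none of them had a peak within 1 kb. The annotation thus shows BAP1 at the most upstream promoter of *Tcf3* and not at the internal ones.

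The surroundings of *Tcf3* were dense in peaks. The gene and the 50 kb on either side held 7 peaks, a number that 5.85% of protein-coding genes reached or passed. Apart from its own, each of these peaks lay within 1 kb of a TSS of another gene. *Uqcr11*, a respiratory chain gene, had a peak 3 bp from its TSS, 8.66 kb from the nearest TSS of *Tcf3*. *Mbd3*, a subunit gene of the NuRD complex, had 2 overlapping peaks, at 16.6 and 16.5 kb. *Mex3d* had 1 at 27.7 kb, the noncoding gene *Gm15123* had 1 at 43.6 kb, and a *U6* snRNA gene lay 926 bp from a peak 41.8 kb upstream of *Tcf3*.

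*Spi1* encodes PU.1, an ETS factor whose dose steers progenitors between the myeloid and the B lineage. The gene covers 33.4 kb on chromosome 2 (90922547 to 90955913, plus strand, ENSMUSG00000002111). Its 4 transcripts begin in 2 groups, at 90922547 to 90922565 and at 90936253 to 90936937. The peak lay 625 bp downstream of the first group, in the intron after the first exon, and 13.1 kb upstream of the second group. The second group includes the start of the longest transcript. The *Spi1* peak therefore counts as gene-proximal only through the upstream starts, and it would not do so with a window of 500 bp or with 1 TSS per gene.

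The *Spi1* peak differed in sequence from the usual gene-proximal one. Its CpG ratio was 0.316 and its GC content 62.5%. The 10073 peaks within 1 kb of any TSS had a median CpG ratio of 0.875 and a median GC content of 67.0%, and the 3091 peaks farther away had medians of 0.333 and 54.0%. None of the 18 motifs on the list searched in every peak was found in it. After the sequence was read, TGTGGT and ACAGGAA were searched for as well. TGTGGT occurred 3 times in the *Spi1* peak, which 10 of the 13164 peaks (0.0760%) reached or passed, whereas 8.05% of all peaks and 12.6% of those away from TSSs held it at least once. ACAGGAA occurred 2 times, as often as in 64 peaks or more often (0.486%), and 1 of its matches overlapped a TGTGGT, as the run TTCCTGTGGT in the sequence of the peak above shows. These letters were chosen because they were seen there, so their rarity is a description of the site. *Spi1* is known to have a distant regulatory element upstream of its main promoter with sites for RUNX and ETS factors, but no coordinates of that element were available to compare with the peak.

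The other 3 peaks in the range of *Spi1* lay at promoters of neighbours. *Psmc3*, a proteasome subunit gene, shared 2 of them with the adjacent noncoding gene *Gm13778*, at 28.4 and 28.2 kb upstream of *Spi1*. *Slc39a13*, a zinc transporter gene, had the third, 57 bp from its TSS and 12.0 kb upstream of *Spi1*. Of all protein-coding genes, 21.0% had 4 or more peaks in such a range.

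**Figure D1:**
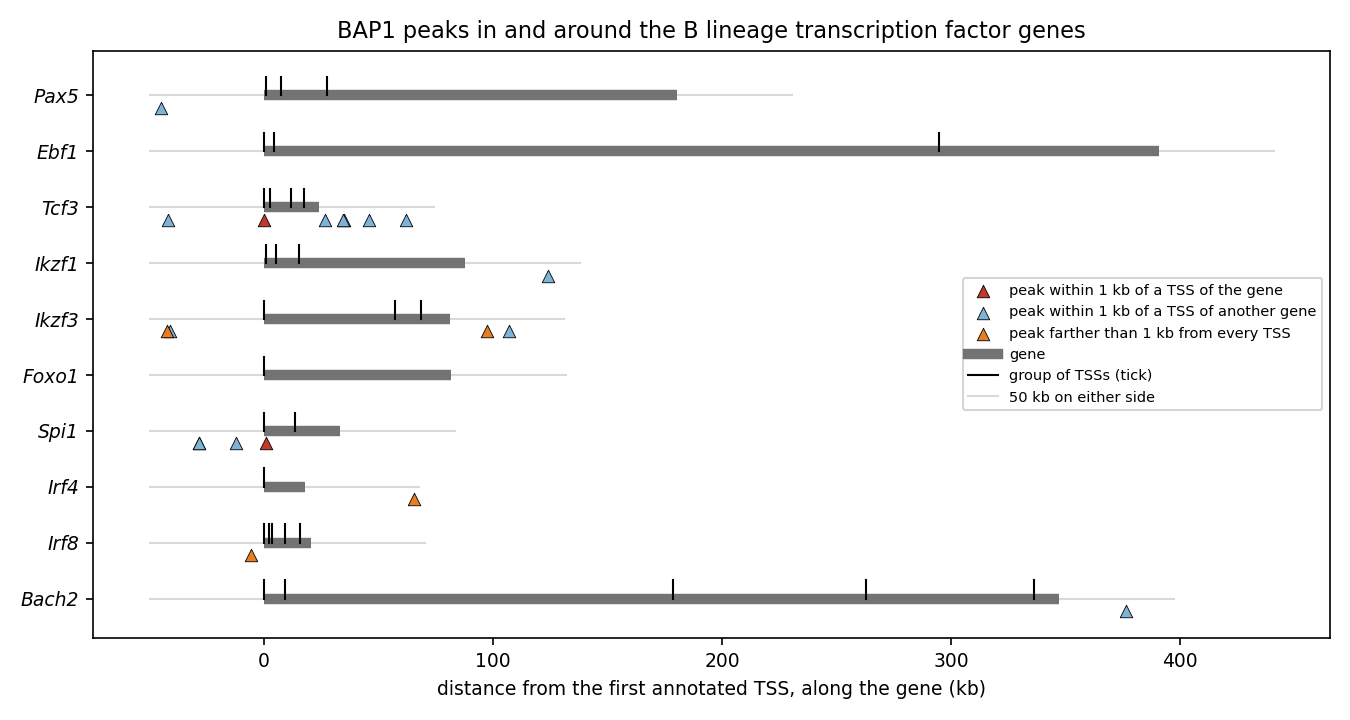
Map of the 10 genes (grey bars), drawn from their first TSS in the direction of transcription with distance in kb on the horizontal axis, 50 kb on either side as thin lines, groups of TSSs as ticks and BAP1 peaks as triangles. The peaks within 1 kb of a TSS of the gene are those of *Tcf3* and *Spi1*, and 14 of the 20 triangles mark peaks at the TSS of another gene.

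*Ebf1* and *Pax5*, the factors of B lineage commitment, had no peak in or at the gene. *Ebf1*, whose product opens chromatin at B cell genes, covers 391 kb on chromosome 11 (44430819 to 44821593, plus strand). Its nearest peak lay 98.4 kb upstream, outside the 50 kb range. *Pax5*, whose product activates B cell genes and silences those of other lineages, covers 180 kb on chromosome 4 (44544017 to 44724318, minus strand). It had 1 peak in range, 45.1 kb upstream at 44769354 to 44769553, and this peak lay 7 bp from the TSS of the neighbour *Zcchc7*. Of its 3 groups of TSSs, the one where 13 of its 16 transcripts begin had a CpG ratio of 0.647, and the other groups lay farther from the peak than this one.

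*Foxo1*, a target of PI3K signalling that is needed for *Il7r* and *Rag* expression in early B cells, had no peak in range either. It covers 81.8 kb on chromosome 3 (52072259 to 52154031, plus strand) with 1 annotated transcript, and its nearest peak was 68.8 kb upstream. The share of protein-coding genes with a nearest peak farther away than theirs was 27.6% for *Ebf1*, 38.6% for *Pax5* and 32.8% for *Foxo1*. All 3 genes thus lay in the farther part of the distribution without being extreme in it.

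The Ikaros family members had peaks nearby but none of their own. *Ikzf1* (chromosome 11, 11585006 to 11672929, plus strand) encodes Ikaros, a zinc finger factor required for the lymphoid lineages. None of its 12 transcripts began within 1 kb of a peak, and the single peak in range lay 36.1 kb beyond the end of the gene, 54 bp from the TSS of *Fignl1*. From the nearest TSS of *Ikzf1* the distance was 109 kb, the largest among the 10 genes.

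*Ikzf3* (chromosome 11, 98326216 to 98407345, minus strand) encodes Aiolos, which limits the growth of pre-B cells. It had 4 peaks in range and none in the gene. One peak lay 11 bp from the TSS of *1810046J19Rik*, and one 115 bp from that of *Ormdl3*, a regulator of sphingolipid synthesis. The remaining 2 were away from every TSS. The first of them, at 98309926 to 98310125, was in an intron of *Grb7*, 1643 bp from its TSS and 28.7 kb from the nearest TSS of *Ikzf3*. The second, at 98449631 to 98449830, lay 1048 bp from the *Ormdl3* TSS, just outside the 1 kb window.

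*Irf4* and *Irf8* encode related interferon regulatory factors that bind DNA with PU.1 and act redundantly in the pre-B cell. *Irf4* (chromosome 13, 30841095 to 30858796, plus strand) had 1 peak in range, at 30906313 to 30906512. It lay 65.3 kb from the *Irf4* TSS, 47.6 kb beyond the gene's end and in an exon of *Exoc2*, with a CpG ratio of 0.181. *Irf8* (chromosome 8, 123260258 to 123280594, plus strand) had 1 peak in range, 5.49 kb upstream of its first TSS. The middle of this *Irf8* peak lay inside another annotated gene, *Gm20388*, but in no exon. No TSS of any gene lay within 1 kb of either peak.

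The *Grb7* intron peak near *Ikzf3* is shown because it lies away from every TSS and outside exons and holds motifs of B lineage factors. It is read on the minus strand of mm9 (chr11:98309926-98310125). Capitals mark CCCNNGGG (EBF1), TGTTTAC (FOXO) and TGGGAA or its reverse complement TTCCCA (Ikaros).
Ikzf3 downstream peak: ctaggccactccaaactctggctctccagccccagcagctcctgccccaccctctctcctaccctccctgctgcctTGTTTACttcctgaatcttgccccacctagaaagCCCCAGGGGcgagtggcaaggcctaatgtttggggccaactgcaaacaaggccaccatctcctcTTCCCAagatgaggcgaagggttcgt

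CCCNNGGG was found in 13.3% of all peaks and in 7.02% of those away from TSSs. The *Grb7* intron peak held this motif in 2 overlapping positions, beside TGTTTAC, found in 3.79% of the peaks away from TSSs, and TGGGAA, found in 16.4% of them. A match to such short letters is not evidence that the factor binds.

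*Bach2*, which encodes a repressor that holds back plasma cell differentiation, covers 347 kb on chromosome 4 (32325779 to 32673083, plus strand). None of its 8 distinct TSSs had a peak. The 1 peak in range, at 32702096 to 32702295, lay 29.1 kb beyond the end of the gene and 231 bp from the TSS of *Casp8ap2*. From the first group of *Bach2* TSSs, which was CpG-rich at a ratio of 0.982, the nearest peak was 275 kb away.

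In all, 20 peaks lay in the 10 genes or within 50 kb of them. Only 2 were at a TSS of the member itself, 14 were at a TSS of another gene, and 4 were away from every TSS. A peak in this range was present for 8 of the 10 genes (80.0%, interval 49.0 to 94.3%), against 65.6% of all protein-coding genes. After peaks at other genes' TSSs were left out, 5 members kept one, namely *Tcf3*, *Ikzf3*, *Spi1*, *Irf4* and *Irf8*, against 41.5% of all protein-coding genes. The median number of peaks in range was 1 for the members and 1 for all protein-coding genes. By these counts the ranges of the members held about as many peaks as those of all protein-coding genes. A range includes the gene and is thus longer for a long gene, and genes of like length were not compared for it.

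Inside the gene itself, 2 of the 10 members had a peak, again *Tcf3* and *Spi1*, against 22.6% of all protein-coding genes. The 6 longest members, *Ebf1*, *Bach2*, *Pax5*, *Ikzf1*, *Foxo1* and *Ikzf3*, had 0. Of the protein-coding genes at least as long as *Ebf1*, 25.3% had a peak inside (85 of 336), and the share was 25.7% for those at least as long as *Bach2* (105 of 408) and 27.4% for *Pax5* (299 of 1092). A long gene without a peak was thus the usual case.

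Peaks at neighbours made up most of those in range. Of the 19 other protein-coding genes with a TSS in the ranges, 11 had a gene-proximal peak (57.9%), against 39.6% of all protein-coding genes. Around the 8 members without one, these were 5 of 11, namely *Zcchc7* beside *Pax5*, *Fignl1* beside *Ikzf1*, *1810046J19Rik* and *Ormdl3* beside *Ikzf3*, and *Casp8ap2* beside *Bach2*. With so few genes nothing is read from these shares, and the difference between members and neighbours was not tested.

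The CpG content of the promoters did not sort the members by their peaks. A promoter was called CpG-rich when the CpG ratio in the 500 bp on either side of the TSS of the longest transcript was at least 0.6. By that measure 6 members were CpG-rich, with ratios of 0.946 for *Tcf3*, 0.953 for *Ikzf1*, 0.912 for *Ikzf3*, 1.06 for *Foxo1*, 0.733 for *Irf8* and 0.982 for *Bach2*. Of these 6, *Tcf3* alone had a gene-proximal peak (16.7%, interval 3.01 to 56.4%), whereas 69.9% of all CpG-rich protein-coding promoters did (7134 of 10199), a value above the interval. The share was also low for CpG-rich T lineage factors, at 2 of 8 (interval 7.15 to 59.1%), and was 58.3% both for partner and paralog factors (14 of 24) and for progenitor factors (7 of 12). A share below the background was thus not seen in the members alone, and the differences between lists were not tested. The 5 others without a peak included the gene with the highest ratio of all members, *Foxo1*.

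By the same measure the remaining 4 members were CpG-poor, at 0.522 for *Pax5*, 0.492 for *Ebf1*, 0.341 for *Spi1* and 0.364 for *Irf4*. Of these, *Spi1* had a gene-proximal peak, against 14.1% of all CpG-poor protein-coding promoters (1716 of 12168). Taken over all 30 groups of TSSs of the members, 8 were CpG-rich and 2 had a peak, the first group of *Tcf3* and the first of *Spi1*. The latter had a ratio of 0.176. The first group of *Pax5*, where 13 of its 16 transcripts begin, was CpG-rich at 0.647.

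**Figure D2:**
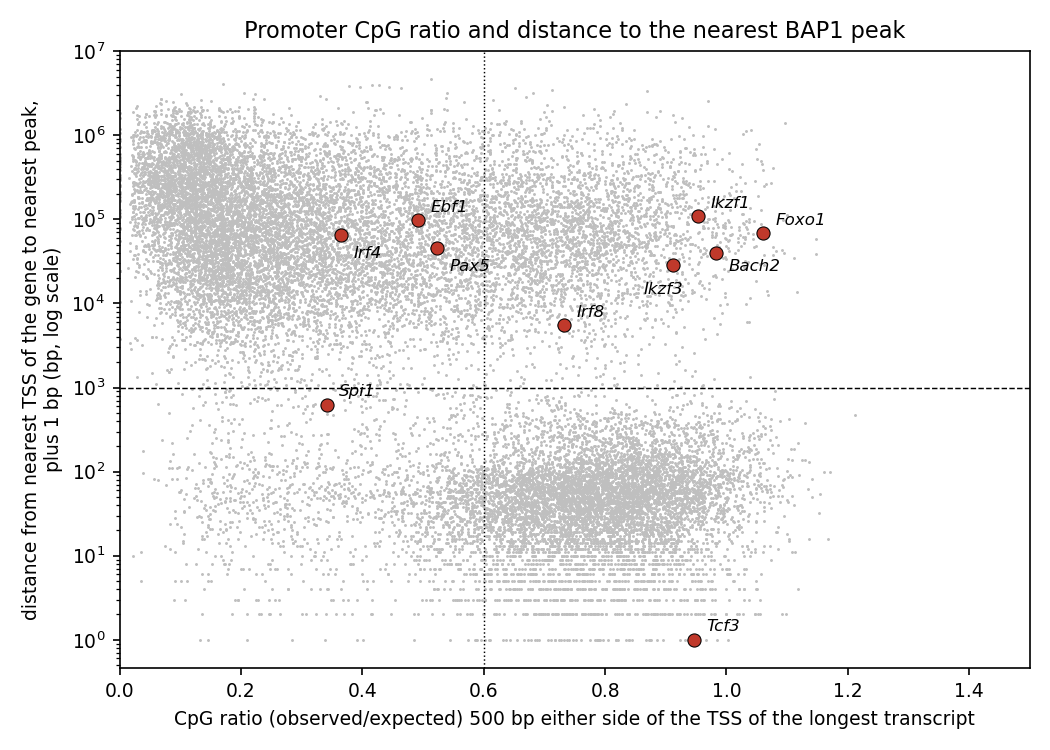
CpG ratio within 500 bp of the TSS of the longest transcript (horizontal axis) and distance to the nearest BAP1 peak plus 1 bp (vertical axis, log scale) for all protein-coding genes (grey) and the B lineage transcription factors (red). The dotted line marks the ratio of 0.6 and the dashed line 1 kb. *Tcf3* lies with the CpG-rich genes that have a peak, whereas *Ikzf1*, *Ikzf3*, *Foxo1*, *Irf8* and *Bach2* lie right of the dotted line but above the dashed one.

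The paralogs of the members, grouped into families after the values had been seen, had peaks at 12 of 21 genes. Over all protein-coding genes the share was 39.6%, and the difference was not tested. Both E protein paralogs of *Tcf3* had a peak near a TSS, *Tcf4* at 64 bp and *Tcf12* at 31 bp. In the Ikaros family, *Ikzf2* (71 bp) and *Ikzf5* (52 bp) had peaks where *Ikzf1* and *Ikzf3* had none, and *Ikzf4* had its nearest at 16.9 kb. *Foxo3* (58 bp) and *Foxo4* (381 bp), the other FOXO factors on the list, had peaks where *Foxo1* had none, and *Bach1* (61 bp) had one where *Bach2* had none.

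The interferon regulatory factors showed the same split. Peaks lay at *Irf1* (145 bp), *Irf2* (126 bp), *Irf3* (110 bp), *Irf7* (3 bp) and *Irf9* (125 bp), which act in interferon responses in many cell types. *Irf4* and *Irf8* had no gene-proximal peak, nor did *Irf5* (58.9 kb). The order was the other way round in the SPI family, where *Spi1* had a peak and *Spib* (16.8 kb) and *Spic* (46.2 kb) had none. In the EBF family 0 of 3 paralogs (*Ebf2*, *Ebf3* and *Ebf4*) and among the nearest relatives of *Pax5* 0 of 2 (*Pax2* and *Pax8*) had one.

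**Figure D3:**
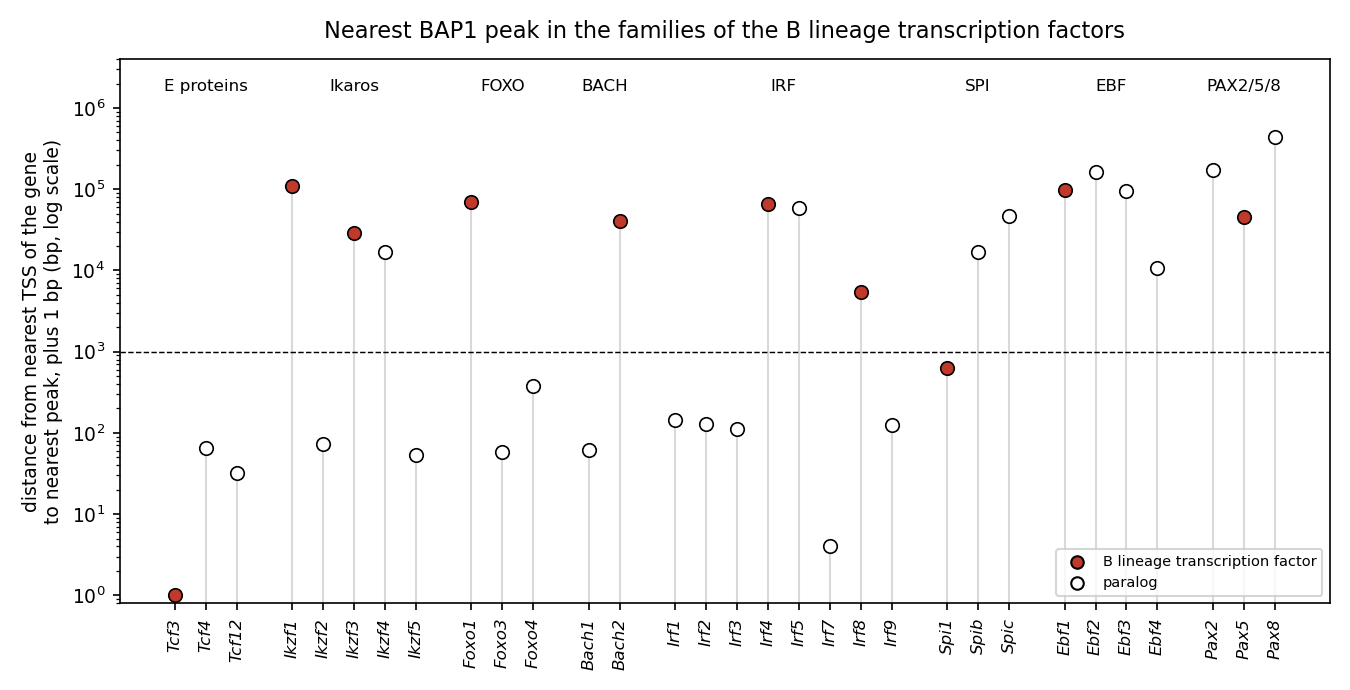
Distance from a TSS to the nearest BAP1 peak, plus 1 bp on a log scale, for the B lineage transcription factors (red) and their paralogs (open circles) by family, with the dashed line at 1 kb. In the Ikaros, FOXO, BACH and IRF families 10 of 12 paralogs lie below the line and 0 of 6 members do. These families were picked after their values were seen. Over all families drawn, 12 of 21 paralogs and 2 of 10 members lie below it.

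The wider circle of transcription factors that partner or resemble the members included 40 genes, of which 20 (50.0%, interval 35.2 to 64.8%) had a gene-proximal peak. Beside the paralogs, those with the nearest peaks were *Foxp1* (1 bp), *Pou2f2* (7 bp, with 3 peaks) and *Xbp1* (18 bp), which act in pre-B cells, mature B cells and plasma cells respectively. *Id1* (86 bp) and *Id2* (81 bp), which encode inhibitors of E proteins, had peaks, and the nearest to *Id3* was 2.93 kb away. *Bcl6*, *Prdm1*, *Bcl11a* and *Pou2af1*, other regulators of B cells, had none, with nearest peaks 84.0, 190, 183 and 137 kb away.

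Of 20 transcription factors of haematopoietic progenitors, 9 had a gene-proximal peak (45.0%, interval 25.8 to 65.8%). They were led by *Gata1* (34 bp), *Lmo2* (42 bp), *Myb* (66 bp) and *Gata2* (71 bp). *Runx1* had its nearest at 18.3 kb and *Cebpa*, the myeloid factor, at 62.6 kb. Among 12 T lineage factors, 4 had one (33.3%, interval 13.8 to 60.9%), namely *Zbtb7b* (15 bp), *Nfatc1* (44 bp), *Runx3* (47 bp) and *Zbtb16* (366 bp). *Gata3*, *Tcf7* and *Bcl11b*, which define T cell commitment, had none. All 3 intervals held the background of 39.6%.

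Of 20 B cell genes that the members are known to regulate, 1 had a gene-proximal peak (5.00%, interval 0.888 to 23.6%). This was *Vpreb1*, a surrogate light chain gene, 39 bp from the start of a noncoding transcript of the gene. The coding TSS of *Vpreb1* was 1.55 kb away, and the same peak lay 3 bp from the TSS of *Top3b*, a topoisomerase gene. *Cd79a* (5.58 kb), *Cd72* (6.80 kb) and *Igll1* (6.82 kb) had the next nearest peaks. Of these 20 genes 2 had CpG-rich promoters, against 6 of the 10 members, and the others were CpG-poor. A gene-proximal peak was present for 39.6% of all protein-coding genes and for 14.1% of those with CpG-poor promoters. The first value lay above the interval of the list and the second inside it.

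**Figure D4:**
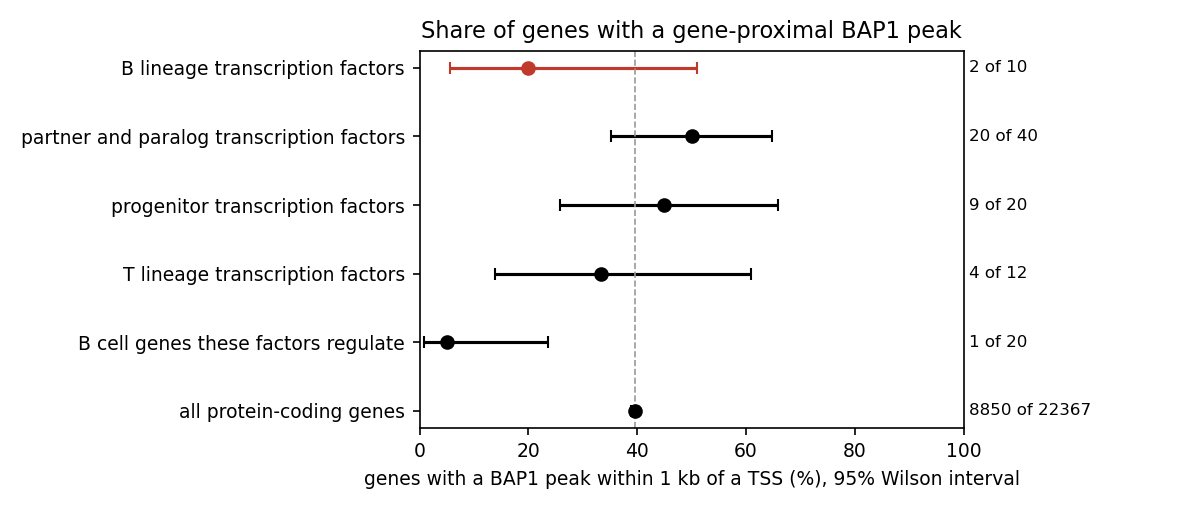
Share of genes with a BAP1 peak within 1 kb of a TSS, in percent, with 95% Wilson intervals, for the B lineage transcription factors (red), the other lists and all protein-coding genes (dashed line). The members lie at 20.0% and the B cell genes they regulate at 5.00%, and the background of 39.6% falls inside the interval of every list of transcription factors. Of the 20 B cell genes 2 had CpG-rich promoters, and the share over all CpG-poor protein-coding promoters, not drawn, was 14.1%.

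The letters for SP1 or KLF factors and for NRF1 were the most frequent motifs in the peaks near the members. GGGCGG was present in 10 of the 20 peaks in the ranges of the members and in 59.5% of all peaks. The NRF1 letters GCNTGCGC were present in 7 of the 20 and in 18.3% of all. Those of other promoter factors were less frequent. CCAAT (NF-Y) was present in 3 and in 28.5%, CCGGAAGT (ETS) in 2 and in 7.85%, and TGACGTCA (CRE) in 1 and in 2.80%. The YY1, E2F and ZNF143 letters occurred in 0 of the 20. Among the letters of B lineage factors, the E box CAGCTG was present in 4 of the 20 and in 9.34% of all peaks, and the other E box, CAGGTG, in 1 and in 10.6%. CCCNNGGG (EBF1) was present in 3 and in 13.3%, TGGGAA (Ikaros) in 3 and in 13.5%, GAAANNGAA (IRF) in 1 and in 4.05%, and TGTTTAC (FOXO) in 1 and in 2.49%. The letters for PU.1 (GAGGAAGT) occurred in 0 of the 20 and in 2.61% of all peaks, and those for RUNX with 1 more base (TGTGGTT) in 0 and in 2.31%. The *Tcf3* peak held GGGCGG 3 times, with 2 of the matches in the upstream bases printed above, and no other motif of the list. The 2 peaks at *Mbd3* overlap, so 1 CAGCTG match and 1 GCNTGCGC match were each counted in both of these peaks.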

How the data were processed

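The study precipitated chromatin of Ba/F3 cells with an anti-BAP1 or an anti-FLAG antibody. The authors aligned reads to mm9 using Bowtie 1.0.0. MACS, version 1.4.2 per the submitters' processing notes, then found peaks against input DNA of the same cells. The deposited values are positions in bp (where a peak starts and ends), with no score. The threshold and the rule that joined both samples are not given in the sources used here, and other choices would change which genes have a peak. Depth is unknown.

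Peaks were placed on GENCODE M1 (mm9) by their middle, with every annotated TSS counted. *Sfpi1* was matched to *Spi1* through RefSeq synonyms (names only). Sequences were read from the mm9 genome and searched for 18 motifs on both strands. No test was made, since the list is 1 set of positions without replicates. Intervals are 95% Wilson intervals for counting error. The members, lists and motifs were chosen with earlier results of these data known. All members were named, as were the genes of each list with the nearest peaks, those behind small counts, and neighbours with a peak at their TSS. Paralogs and list genes without a peak that contrast with a member, the *Spi1* letters and the families were chosen after their values were seen. So were the *Ikzf3*, *Foxo1* and *Irf8* sequences. The peak in the *Exoc2* exon and other peaks over exons are described without their sequence. The number of unmatched per-sample columns was 0. Other windows, ranges and sets of TSSs were tried. Counting was tested on simulated data with Python 3.11.15, numpy 2.4.6, pandas 2.3.3, scipy 1.17.1 and matplotlib 3.10.9. Some genes and 1 sequence are not reported here.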

Additional observations from a re-analysis of the deposited data

How the results depend on the processing

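The gene-proximal peak of *Tcf3* was present in every alternative tried, and that of *Spi1* in all but 2. With a window of 500 bp, or with 1 TSS per gene, the members with a gene-proximal peak and the gene-proximal peaks of the members each fell from 2 to 1, because the *Spi1* peak is 625 bp from its upstream starts and the longest transcript begins at the downstream ones. With TSSs of protein-coding transcripts only, the B cell genes regulated by the members with such a peak went from 1 to 0, because *Vpreb1* was lost.

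The wider range set the other counts. With 20 kb in place of 50 kb, 4 of the 10 members had a peak, against 55.4% of protein-coding genes, and the peaks numbered 8. With 100 kb all 10 members had a peak, against 74.4% of protein-coding genes, and the peaks numbered 34. The share of the members was thus below that of all protein-coding genes at 20 kb and above it at 50 and 100 kb. With peaks at a TSS of another gene left out, 5 members, 6 peaks and 9279 protein-coding genes (in place of 14678) remained.

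The values tried covered windows, ranges, peak edges, sets of TSSs and merging of peaks within 500 bp. In all, 37 of them were within 1.5 times those reported, the 10 members at 100 kb included. The other 11 were not, and they are among the counts given above. No paired analysis was possible because the list holds positions from both samples together and no result came from a test. For the same reason no sample was left out. A stricter threshold of the peak caller was not tried, since the deposited list used here carries no score.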
